A study of Homo sapiens with 6 samples.

Results

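RBM genes are a family named for the RNA-binding motif that their proteins carry, and their transcripts were examined here after knockdown of CIRBP, the cold-inducible RNA-binding protein. The members were the genes whose name is RBM followed by a number and an optional letter, together with RBMX, RBMX2, RBMS1, RBMS2 and RBMS3. RBM3, the Y-linked RBMY genes, pseudogenes named with P and a number, and readthrough genes named with a hyphen were left out. Of 42 names that fit in a table of 58884 genes, 38 had at least 10 estimated counts in at least 3 of the 6 libraries, a rule that 15296 genes of the whole table met. RNA was sequenced from T0519, an immortalized human cardiomyocyte line, after negative control siRNA (NC, 3 libraries) or siRNA against CIRBP (SiCIRBP, 3 libraries). The labels give T0519 as the cell line, whereas the study's text names AC16, another immortalized ventricular line, for the sequencing. No other treatment is named for these libraries, and nothing states whether the replicates were separate cultures, so p-values measure only the spread between these libraries.

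RBM proteins bind RNA through RNA recognition motifs, and most of them work in the nucleus. Some are parts of the spliceosome or help it to choose splice sites, some mark exon junctions or hand transcripts to the nuclear exosome, and others guide the enzymes that place N6-methyladenosine (m6A) on RNA. In heart muscle the family is best known for RBM20 and RBM24, which direct the splicing of sarcomere transcripts, and mutations of RBM20 cause dilated cardiomyopathy. CIRBP is itself a small RNA-binding protein with a single recognition motif.

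The study tested 4 of the 6 libraries, leaving out NC_1 and SiCIRBP_2 after correlation and principal component analysis, and the same 4 libraries (NC_2 and NC_3 against SiCIRBP_1 and SiCIRBP_3) give the tests reported first here. All 6 libraries are shown throughout. Totals ranged from 25726259 to 29919566 estimated counts, of which the 38 members made up between 0.234% and 0.280%. CIRBP had 86.4, 85.8 and 91.0 CPM (counts normalized for library size) in NC and 54.8, 24.3 and 46.3 CPM in SiCIRBP, and fell over the 4 libraries by 0.81 on the log2 scale (SE 0.11, adjusted p = 0.00828). Here and below, p-values come from the quasi-likelihood test of edgeR and are adjusted over all genes tested (Benjamini-Hochberg), and a gene is called at an adjusted p under 0.05. The adjusted p of CIRBP was 0.0576 without NC_2 and 0.106 without NC_3, and over all 6 libraries its log2 fold change was -1.07 with an adjusted p of 0.103. SiCIRBP_2, which had the lowest CIRBP level, stood apart: 28 interferon-stimulated genes summed to 8956 TPM (a level per transcript length) there, 408 and 1764 TPM in SiCIRBP_1 and SiCIRBP_3, and 881 to 919 TPM in NC. Of 12 cardiomyocyte markers, MYH6, MYL2, TTN, RYR2 and PLN were listed at 0 TPM in every library and TNNT2 in 5 of 6. The 12 summed to between 14.5 and 16.9 TPM in NC and between 9.56 and 12.5 TPM in SiCIRBP, most of it ACTN2. Only 2 of the 12 had enough counts to be tested, and 0 were called. The median log2 fold change of these 2 was 1.01 over the 4 libraries and 0.89 over all 6, so the sum does not speak for every marker. This median is the midpoint of 2 genes and need not describe either. On the scale of log2(CPM + 1), which shrinks changes at low counts, their median difference from the NC mean was smaller. It was 0.13, 0.03 and 0.16 in SiCIRBP_1, SiCIRBP_2 and SiCIRBP_3. Whether the marker levels had a part in any result was not tested. Fibroblast markers were abundant, at 3862 to 4120 TPM in NC and 3751 to 5320 TPM in SiCIRBP, largely VIM and COL1A1. In bulk RNA, fewer cells with a transcript and less of it per cell cannot be told apart.

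Over the 4 libraries, 8 members rose and 4 fell after CIRBP knockdown. The risers were RBM14, RBM12, RBM12B, RBM4, RBM15B, RBM25, RBMX and RBM42, and those that fell were RBM24, RBMS1, RBMS2 and RBM33. The 8 risers are 21.1% of the 38 members, against 9.62% of the 15421 genes tested that were called higher, and the 4 that fell are 10.5%, against 9.76% called lower. The share that fell was thus near that of all genes. At least 2-fold changes were seen in 2 risers, RBM14 and RBM12 (1.82% of all genes), and in 1 gene that fell, RBM24 (1.8% of all genes). The median log2 fold change of the members was -0.06, with 15 above 0 and 23 below, and that of all genes was -0.002. The members' median size of change was 0.23 on the log2 scale, and that of all genes was 0.30.

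These calls belong to the 4 libraries. Over all 6 libraries edgeR called 0 of the 38 members and 0 of 15217 genes (0.0%), and 13 members (34.2%) had an unadjusted p under 0.05, against 23.7% of all genes. DESeq2, another count test, called the same 12 over the 4 libraries (8 higher and 4 lower, against 11.0% and 12.3% of all genes), and over all 6 it called 4 higher (RBM12, RBM14, RBM4 and RBM15B) and 2 lower (RBM24 and RBMS1), against 4.4% and 4.9% of all genes. Without NC_2, edgeR called 2 members higher (RBM14 and RBM12) and 0 lower, against 0.428% and 0.613% of all genes. Without NC_3 it called 1 higher (RBM14) and 0 lower, against 0.158% and 0.246%. Without SiCIRBP_1 it called 10 higher and 7 lower (21.2% and 23.1% of all genes), and without SiCIRBP_3 11 higher and 10 lower (19.1% and 21.1%), the 12 among them in each case. All 12 called members kept their direction in each of these fits, and 9 members that were not called turned direction between the 4 and the 6 libraries. The 3 SiCIRBP libraries lay entirely above the 3 NC libraries for 9 members, against 16.2% of all genes (23.7% of members), and entirely below for 7 members (18.4%), against 16.6%. With 3 against 3 libraries an exact two-sided permutation test of a single gene cannot give a p below 0.1.

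**Figure D1:**
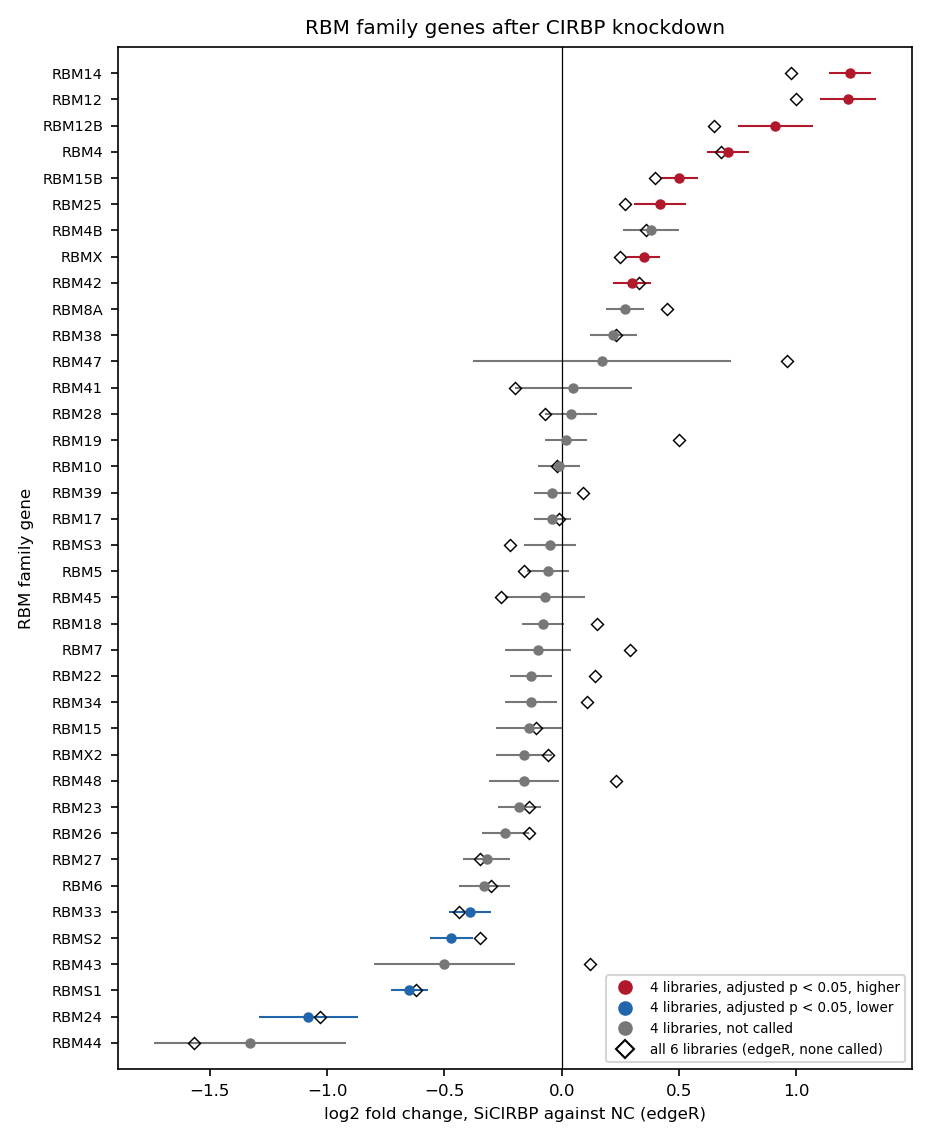
Log2 fold change of each of the 38 RBM family genes, SiCIRBP against NC, on the x axis. Filled circles with bars are the 4-library estimate ± SE, coloured red where called higher, blue where called lower and grey otherwise, and open diamonds are the edgeR estimate over all 6 libraries, where edgeR called none. RBM14 and RBM12 lie farthest to the right and RBM44, which was not called, farthest to the left.

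RBM14, RBM12, RBM12B, RBM4 and RBM4B were listed together as alternative splicing and coactivator genes, although the function of RBM12 and RBM12B is little known, and the list was made with earlier results known. Of these 5, 4 rose, against 9.62% of all genes, and their median log2 fold change was 0.91, beside -0.06 for all members. The count describes these 5 genes, and no test was run on the list. RBM14, a nuclear coactivator that is also a part of paraspeckles, had 53.9 and 51.7 CPM in NC_2 and NC_3, 87.2 in NC_1, and 120, 132 and 129 CPM in SiCIRBP_1 to SiCIRBP_3. It rose 2.35-fold over the 4 libraries (log2 fold change 1.23, SE 0.09, adjusted p = 0.00262), with an adjusted p of 0.0913 over all 6. Every SiCIRBP library was above every NC library, and NC_1 was the NC library nearest to them. RBM12, a protein with several recognition motifs, had 52.0, 37.0 and 37.8 CPM in NC and 77.6, 80.3 and 96.4 CPM in SiCIRBP. It rose 2.33-fold (log2 fold change 1.22, SE 0.12, adjusted p = 0.00495), with 0.0869 over all 6, and the groups did not overlap. Its paralog RBM12B was low, with 10.7, 8.82 and 7.67 CPM in NC and 13.9, 11.6 and 17.0 CPM in SiCIRBP, and rose by a log2 of 0.91 (SE 0.16, adjusted p = 0.0161). The lowest SiCIRBP value, in SiCIRBP_2, lay just above the highest NC value, in NC_1.

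RBM4, which controls alternative splicing and translation and takes part in muscle cell differentiation, had 108, 82.1 and 77.5 CPM in NC and 126, 168 and 136 CPM in SiCIRBP. It rose 1.64-fold (log2 fold change 0.71, SE 0.09, adjusted p = 0.00688), and the 6-library value was 0.68 with an adjusted p of 0.103. The groups did not overlap, and the highest library was SiCIRBP_2. Its paralog RBM4B lies beside it in the genome on the other strand and had 22.1, 18.8 and 17.1 CPM in NC and 22.6, 27.8 and 24.1 CPM in SiCIRBP. The SiCIRBP libraries were the higher ones, but RBM4B was not called (log2 fold change 0.38, SE 0.12, adjusted p = 0.0652).

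RBM14, RBM4 and RBM4B are neighbours on chromosome 11 (GRCh38, GENCODE 29), at chr11:66616582-66627347 on the plus strand, chr11:66638617-66668374 on the plus strand and chr11:66664998-66677921 on the minus strand. A readthrough gene, RBM14-RBM4, shares 10.0% of the 31-base words of the RBM14 transcripts and 23.0% of those of RBM4, so reads can be divided between them. The readthrough gene itself did not pass the test (log2 fold change -0.11, adjusted p = 0.561, and 0.16 over all 6), with 16.6, 14.6 and 13.8 CPM in NC and 13.1, 24.1 and 13.2 CPM in SiCIRBP. RBM4 and RBM4B also share sequence where they overlap tail to tail, 8.37% of the RBM4 words, and whether the libraries keep strand is not stated. RBM12 lies at chr20:35648925-35664956 on the minus strand, wholly inside the span of CPNE1, with which it shares 8.47% of its words. CPNE1 was not called (log2 fold change -0.30, adjusted p = 0.0639). RBM12B shares 27.8% of its words with FAM92A on the opposite strand, and FAM92A rose by a log2 of 0.59 (adjusted p = 0.0257).

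The promoters of 3 risers (RBM14, RBM12 and RBM4) and of RBM24 and RBMS1, the called members with the largest falls, are printed here. That of RBM12B, which rose more than RBM4, was not used here, and RBM44 was not called. They are RefSeq windows on GRCh38.p14, from 250 bases before to 50 after the RefSeq start of the gene, 5′ to 3′ on the gene's strand. Capitals mark the cyclic AMP response element TGACGTCA and the CCAAT box on either strand. Each motif was searched on both strands, and these motifs did not overlap each other. The windows are chr11:66616380-66616679 (plus strand) for RBM14, chr20:35664851-35665150 (minus) for RBM12, chr11:66638453-66638752 (plus) for RBM4, chr6:17281814-17282113 (plus) for RBM24 and chr2:160493758-160494057 (minus) for RBMS1.
RBM14: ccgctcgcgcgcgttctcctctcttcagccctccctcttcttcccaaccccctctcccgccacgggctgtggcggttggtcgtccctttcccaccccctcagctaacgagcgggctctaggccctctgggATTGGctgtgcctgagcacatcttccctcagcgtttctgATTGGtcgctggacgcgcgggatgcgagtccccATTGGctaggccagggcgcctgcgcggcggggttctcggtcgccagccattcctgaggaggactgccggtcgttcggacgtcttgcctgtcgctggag
RBM12: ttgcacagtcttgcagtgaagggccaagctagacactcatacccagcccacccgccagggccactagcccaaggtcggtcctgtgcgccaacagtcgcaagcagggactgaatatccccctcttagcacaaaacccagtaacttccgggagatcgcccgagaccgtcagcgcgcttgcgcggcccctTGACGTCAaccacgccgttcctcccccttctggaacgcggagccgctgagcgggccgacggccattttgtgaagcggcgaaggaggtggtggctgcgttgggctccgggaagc
RBM4: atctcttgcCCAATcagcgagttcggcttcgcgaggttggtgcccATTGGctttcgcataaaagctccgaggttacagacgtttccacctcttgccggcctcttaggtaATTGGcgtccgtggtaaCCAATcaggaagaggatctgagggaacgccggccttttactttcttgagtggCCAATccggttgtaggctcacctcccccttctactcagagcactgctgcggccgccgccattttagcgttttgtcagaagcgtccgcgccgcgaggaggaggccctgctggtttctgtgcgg
RBM24: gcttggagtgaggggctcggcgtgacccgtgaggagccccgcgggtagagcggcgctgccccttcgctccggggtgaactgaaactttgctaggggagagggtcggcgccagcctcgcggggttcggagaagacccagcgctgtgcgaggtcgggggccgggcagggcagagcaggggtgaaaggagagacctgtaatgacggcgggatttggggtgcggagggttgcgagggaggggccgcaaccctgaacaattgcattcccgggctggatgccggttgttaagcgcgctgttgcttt
RBMS1: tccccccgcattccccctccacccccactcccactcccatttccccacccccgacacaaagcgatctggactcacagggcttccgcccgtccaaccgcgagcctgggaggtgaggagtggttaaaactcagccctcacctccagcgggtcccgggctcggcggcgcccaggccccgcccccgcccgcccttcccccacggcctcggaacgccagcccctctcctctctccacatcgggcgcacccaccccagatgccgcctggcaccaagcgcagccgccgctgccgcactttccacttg
RBM14 held 3 CCAAT boxes, whose first bases lie at -120, -81 and -48 from the start, and RBM4 held 5, between -241 and -72. RBM12 held no CCAAT box but 1 cyclic AMP response element at -63. RBM24 and RBMS1 held neither, and RBMS1 held 4 matches to the GC box GGGCGG. Of the 38 members, 34 had a window in the table used. A CCAAT box was found in 18 of these 34 (52.9%), in 5 of the 7 risers with a window (RBM14, RBM4, RBM25, RBM42 and RBMX) and in 0 of the 4 genes that fell, beside 34.6% of 35116 windows of all genes. The cyclic AMP response element was found in 3 members (RBM12, RBM18 and RBM42), 8.82%, beside 1.85% of all windows. It was in 2 of the 7 risers with a window and in 0 of the 4 genes that fell. The GC box was in 19 members (55.9%, all windows 45.0%), the E-box CACGTG in 3 (8.82%, all 7.26%) and the TATA box TATAAA in 4 (11.8%, all 11.5%). In the same 7 risers and 4 genes that fell, the GC box was in 2 and 2. The E-box was in 1 and 0, and the TATA box in 1 and 1. Whether any motif went with the direction of change was not tested. The windows of all genes were not limited to genes that met the count rule, as the members did. The shares are therefore not a like comparison, and a matched one was not made. A match describes letters in the window and is not a binding site.

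**Figure D2:**
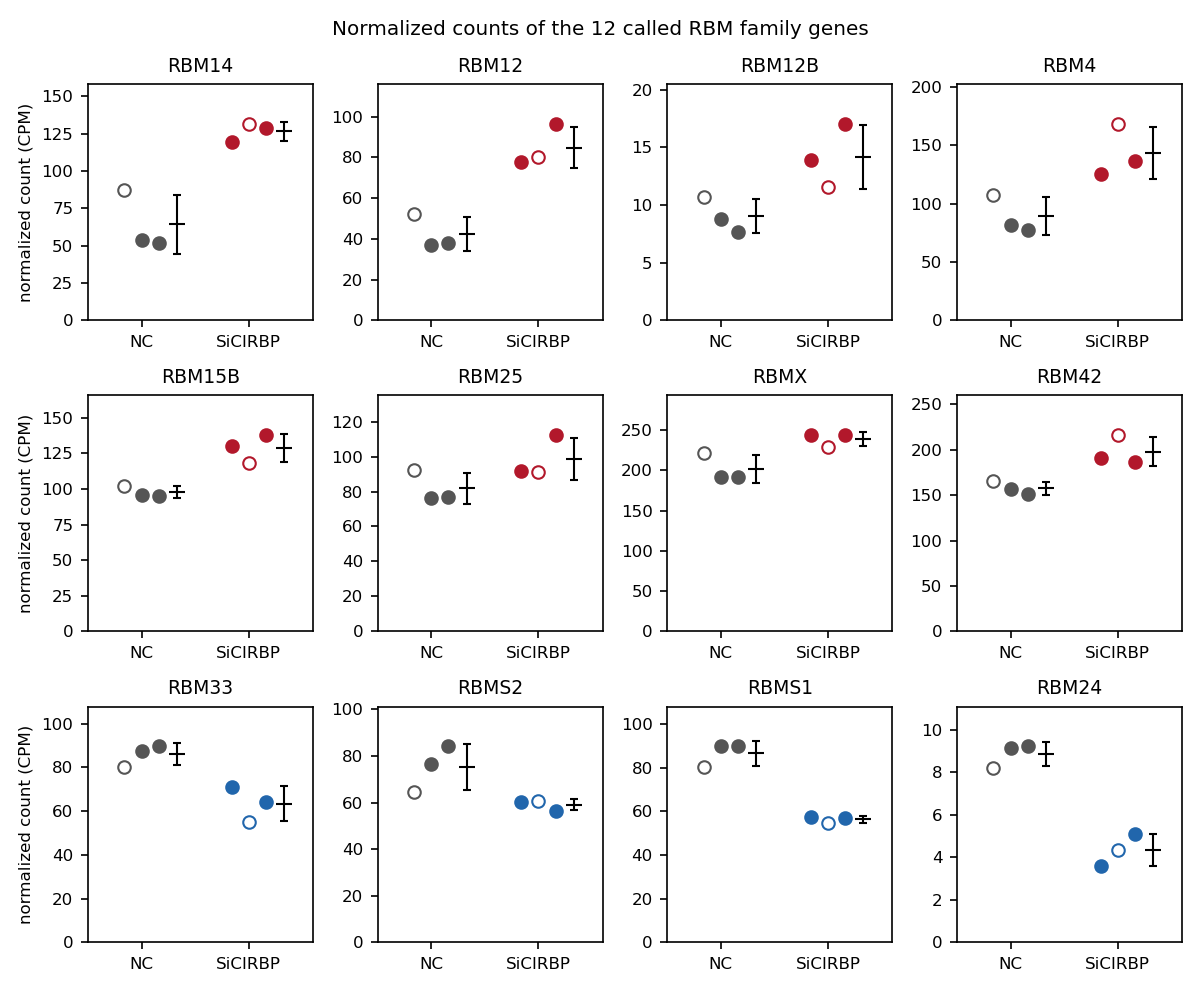
Normalized counts (CPM, linear axis from 0) of the 12 called members in each library, NC in grey and SiCIRBP in red (called higher) or blue (called lower). Filled points are the 4 tested libraries, open points NC_1 and SiCIRBP_2, and the bar is the mean ± SD of all 3 libraries of a group. The groups are separate in 11 of the 12 panels (69.4% of all genes called over the 4 libraries had separate groups), and RBM25 overlaps through NC_1.

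Among the members linked to m6A, 2 of 5 rose and 1 fell, against 9.62% of all genes called higher and 9.76% called lower. RBM15B, which brings the m6A writer complex to its sites, had 102, 95.6 and 94.9 CPM in NC and 130, 118 and 138 CPM in SiCIRBP, and rose 1.41-fold (log2 fold change 0.50, SE 0.08, adjusted p = 0.0133). The groups did not overlap. Its paralog RBM15, with the same adaptor role, had 18.8, 19.3 and 22.1 CPM in NC and 17.2, 18.4 and 20.3 CPM in SiCIRBP and was not called (log2 fold change -0.14, SE 0.14, adjusted p = 0.502). RBMX, which binds methylated transcripts and chromatin-bound RNA, had 221, 192 and 192 CPM in NC and 244, 229 and 244 CPM in SiCIRBP. It rose 1.27-fold (log2 fold change 0.35, SE 0.07, adjusted p = 0.0237), and the groups were close but separate. RBM33, a partner of the m6A eraser ALKBH5, had 80.2, 87.7 and 89.8 CPM in NC and 70.9, 55.1 and 64.1 CPM in SiCIRBP, and fell by 0.39 on the log2 scale (SE 0.09, adjusted p = 0.03). SiCIRBP_2 held its lowest value. RBM45 was not called.

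RBM15B shares 19.2% of its words with DCAF1 on the opposite strand, and DCAF1 went the other way, with a log2 fold change of -0.43 (adjusted p = 0.0416). RBMX shares 18.5% of its words with its retrocopy RBMXL1, which rose by a log2 of 0.62 (adjusted p = 0.0389), and how reads were divided between that pair is uncertain. Of 13 further m6A writers, erasers and readers, 0 rose and 1 fell, against 9.62% and 9.76% of all genes. The gene that fell was ZC3H13, a writer subunit, at a log2 fold change of -0.36 (adjusted p = 0.0462), and the next smallest p belonged to the reader YTHDF2 (log2 fold change 0.30, adjusted p = 0.088). The median of the 13 was 0.05.

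None of the 6 that act at the 3′ splice site or resemble U2AF (RBM5, RBM6, RBM10, RBM17, RBM23 and RBM39) was called, and their median log2 fold change was -0.05. RBM39, the most abundant of these, had 223, 206 and 216 CPM in NC and 202, 274 and 209 CPM in SiCIRBP (log2 fold change -0.04, SE 0.08), and its direction turned over all 6 libraries (0.09). RBM23, its paralog, had a log2 fold change of -0.18 (SE 0.09, adjusted p = 0.19). Of the 6 other members found in the spliceosome or its snRNPs, 2 rose and 0 fell, against 9.62% and 9.76% of all genes. RBM25, a splicing factor, had 92.0, 76.5 and 76.9 CPM in NC and 92.0, 91.3 and 112 CPM in SiCIRBP. It was called higher (log2 fold change 0.42, SE 0.11, adjusted p = 0.0457), but NC_1 reached the level of 2 SiCIRBP libraries and the groups overlapped. RBM42, a tri-snRNP protein, had 165, 156 and 151 CPM in NC and 191, 216 and 186 CPM in SiCIRBP. It rose 1.23-fold (log2 fold change 0.30, SE 0.08, adjusted p = 0.0397), with separate groups.

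Partner genes of these machines were counted from lists by complex. Of 62 partners in all, 8 rose (12.9%, against 9.62% of all genes) and 1 fell (1.61%, against 9.76%) over the 4 libraries. The share that rose was near that of all genes, and 0 partners were called by edgeR over all 6, without NC_2 or without NC_3. Among 11 genes of 3′ splice site recognition, 2 rose: SF3B4, an SF3b subunit, at a log2 of 0.58 (adjusted p = 0.0102), and U2AF2, at 0.33 (adjusted p = 0.0347). Among 11 genes of the Prp19 (NTC) and RES complexes, 1 rose, PRPF19 at 0.33 (adjusted p = 0.0353), and PLRG1 was next at 0.29 (adjusted p = 0.0769). Among 8 minor spliceosome genes, 2 rose, SNRNP48 at 0.59 (adjusted p = 0.0285) and SNRNP25 at 0.43 (adjusted p = 0.0489). The medians of these 3 lists were 0.05, -0.01 and 0.34, beside -0.002 for all genes.

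None of the 4 members of the exon junction and nuclear exosome group was called. RBM8A, the core exon junction protein Y14, had 135, 113 and 104 CPM in NC and 131, 219 and 131 CPM in SiCIRBP (log2 fold change 0.27, SE 0.08, adjusted p = 0.0634). SiCIRBP_2 was the high library and the groups overlapped through NC_1. RBM7 of the NEXT complex and RBM26 and RBM27 of the PAXT pathway had log2 fold changes of -0.10, -0.24 and -0.32, and RBM7 turned to 0.29 over all 6. Of their 31-base words, RBM8A shares 30.2%, RBM7 17.6%, RBM26 1.78% and RBM27 44.7% with other genes. For RBM27 this is AC091959.3 on the same strand, and how reads were divided between them is uncertain. Of 14 other exon junction and nonsense-mediated decay genes, 2 rose, EIF4A3 at 0.40 (adjusted p = 0.0208) and UPF2 at 0.42 (adjusted p = 0.0398). Of 5 NEXT and PAXT genes, 1 rose, ZFC3H1 at 0.53 (adjusted p = 0.0284), while PABPN1 had 0.21 (adjusted p = 0.167). Beside these counts, 9.62% of all genes were called higher. Over all 6 libraries the groups of EIF4A3 were separate, and those of UPF2 and ZFC3H1 overlapped. The 3 nucleolar members, RBM19, RBM28 and RBM34, were not called, with a median of 0.02.

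In the RBMS genes, whose proteins bind single-stranded DNA and mRNAs, 2 of 3 members fell, against 9.76% of all genes. RBMS1 had 80.1, 90.0 and 89.8 CPM in NC and 57.6, 54.6 and 56.9 CPM in SiCIRBP. It fell by 0.65 on the log2 scale (SE 0.08, adjusted p = 0.00726), to 0.637 of the NC level, with 0.0869 over all 6. The 3 SiCIRBP libraries lay close together and well below NC. RBMS2 had 64.7, 76.7 and 84.4 CPM in NC and 60.2, 60.8 and 56.5 CPM in SiCIRBP, and fell by 0.47 (SE 0.09, adjusted p = 0.0216). Its groups were separate, with NC_1 close to SiCIRBP. RBMS3 had 14.9, 20.6 and 20.8 CPM in NC and 19.2, 8.48 and 20.6 CPM in SiCIRBP, and was not called (log2 fold change -0.05, SE 0.11). Its only low SiCIRBP library was SiCIRBP_2.

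RBM24, which directs splicing in heart and skeletal muscle and stabilizes CDKN1A (p21) mRNA, had the largest fall among called members. It had 8.20, 9.16 and 9.25 CPM in NC and 3.60, 4.36 and 5.09 CPM in SiCIRBP. It fell by 1.08 on the log2 scale (SE 0.21, adjusted p = 0.0198), to 0.472 of the NC level, and its 6-library value was -1.03 with an adjusted p of 0.0869. The groups were widely separate, at a low level, with counts of 236 in NC_2. RBM24 lies at chr6:17281346-17293875 and shares 0% of its words with other genes. RBM38, its closest relative, which also stabilizes CDKN1A mRNA, was at 38.2, 38.7 and 37.7 CPM in NC and 47.0, 45.6 and 41.8 CPM in SiCIRBP. These groups did not overlap either, in the opposite direction, but RBM38 was not called (log2 fold change 0.22, SE 0.10, adjusted p = 0.182).

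Other tissue-restricted genes of the family were at or near the floor, as were RBM8B and RBM43, which were not listed in that group. RBM20, the cardiac regulator of titin splicing, had 2, 0 and 4 estimated counts in NC and 2, 2 and 1 in SiCIRBP, at most 0.02 TPM, and was below the count rule. RBM11, RBM46 and RBM8B were listed at 0 counts in all 6 libraries, where 0 counts allow up to 3. Of 8 transcripts whose splicing RBM20 controls, TTN, RYR2 and TRDN were listed at 0 TPM in every library, and 4 were tested. Of those 4, CAMK2D fell by 0.56 (adjusted p = 0.0312) and PDLIM5 was next, at -0.39 (adjusted p = 0.0508). PDLIM5 turned to 0.18 over all 6 libraries, with 44.0 CPM in SiCIRBP_2 and between 22.7 and 25.0 CPM in NC. RBM44, a protein of germ cell bridges, had 17, 21 and 29 estimated counts in NC and 11, 2 and 9 in SiCIRBP. All SiCIRBP values were lower, but RBM44 was not called (log2 fold change -1.33, SE 0.41, adjusted p = 0.0653). RBM47, an RNA editing cofactor, had 0.56, 0.54 and 0.79 CPM in NC and 0.41, 2.22 and 1.10 CPM in SiCIRBP. RBM43, a little-studied member, had 2.66, 2.21 and 3.21 CPM in NC and 1.75, 4.98 and 2.10 CPM in SiCIRBP. Both were highest in SiCIRBP_2 and neither was called (log2 fold changes 0.17 and -0.50). The direction of RBM43 turned over all 6 libraries (0.12), and that of RBM47 turned without NC_2 (-0.06) and without SiCIRBP_3 (-0.71).

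**Figure D3:**
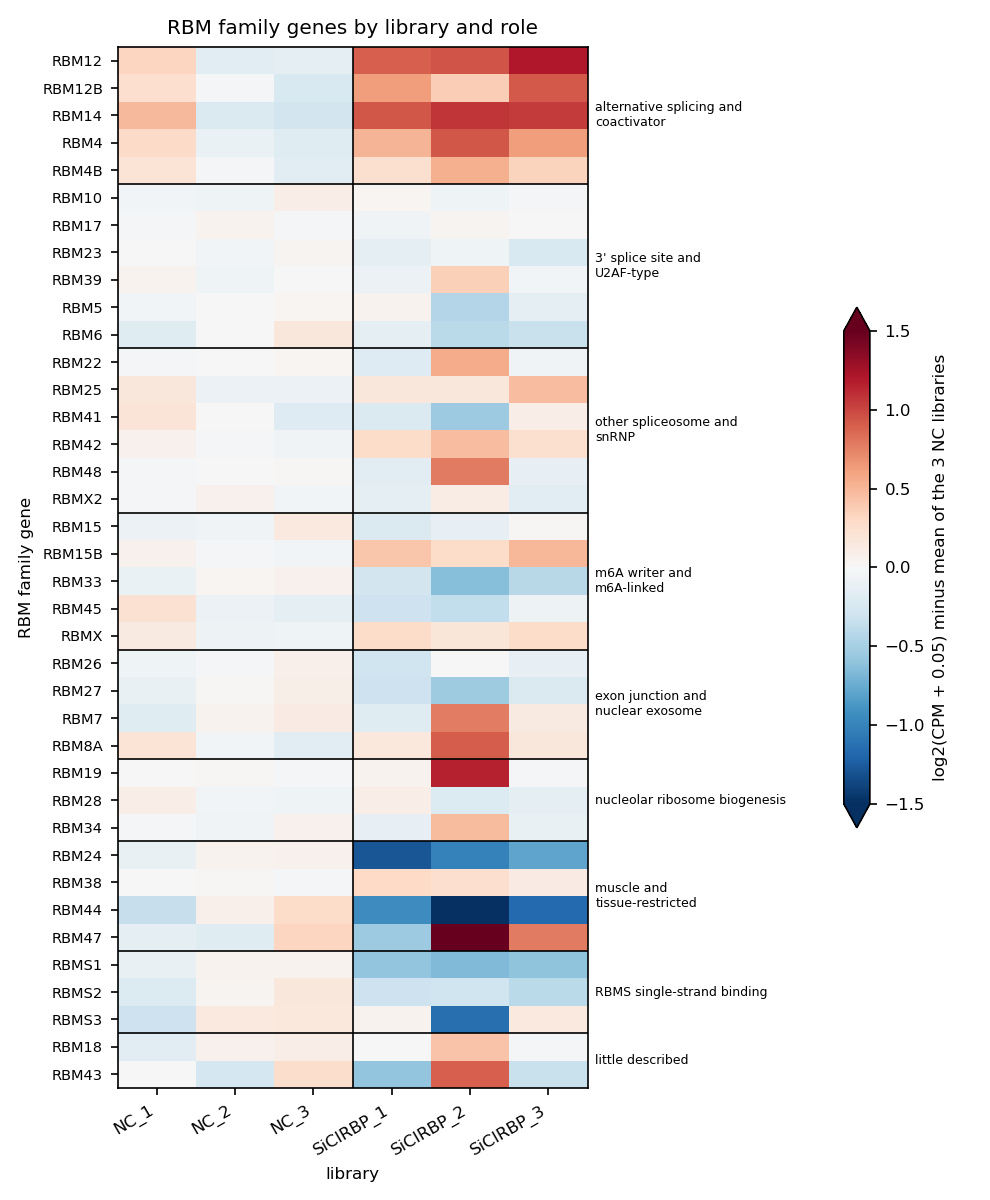
Heat map of the 38 members (rows, grouped by role) in the 6 libraries (columns), coloured by log2(CPM + 0.05) minus the mean of the 3 NC libraries, red above and blue below, with colours saturating at 1.5 in size. RBM14, RBM12 and RBM4 are red and RBM24 and RBMS1 blue in all 3 SiCIRBP columns, and SiCIRBP_2 alone is strongly red for RBM19.

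The libraries that the study left out moved as follows. SiCIRBP_2 minus NC_1, a contrast that shares no library with the 4-library test, had the direction of the call in 7 of the 8 risers (the exception was RBM25) and in 4 of the 4 genes that fell. Among all genes called higher and lower, the same held for 74.6% and 73.9%. NC_1 lay on the SiCIRBP side of the mean of NC_2 and NC_3 for 12 of the 12 called members, at a median share of 0.4 of the difference. That was so for 92.9% of all genes called higher and 95.6% of those called lower, and NC_2 and NC_3 are also libraries of the test. SiCIRBP_2 was the highest of all 6 libraries for 15 members (39.5%), against 31.1% of all genes, and the lowest for 11 (28.9%), against 32.2%. Chosen after their values were seen, RBM19, a factor of ribosome assembly, had 141 CPM in SiCIRBP_2 and between 62.3 and 65.7 CPM in the other 5 libraries, and RBM22, of the activated spliceosome, had 141 CPM there and between 83.2 and 97.0 CPM elsewhere. RBM7 had 41.8 CPM in SiCIRBP_2 and at most 26.9 CPM elsewhere, and RBM48 had 16.3 CPM and at most 9.54 CPM elsewhere. None of these 4 was called, and the part of the interferon-stimulated genes in these values was not tested.

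Levels can be compared between genes only per length, in TPM. The member means over 6 libraries ran from 231 TPM for RBM8A down to 0.25 TPM for RBM44, with a median of 22.2 TPM. RBM8A was followed by RBM42 at 184, RBM39 at 173, RBMX at 156, RBM4 at 119 and RBM17 at 114 TPM. In all, 10 members averaged at least 50 TPM and 3 averaged under 1 TPM (RBM43, RBM47 and RBM44). The ranges over libraries of neighbours in this order overlapped in 36 of 37 pairs, and the exception was RBM17 against RBM5 at 72.0 TPM. In TPM, RBM4 rose from 95.8 ± 16.1 (SD, n = 3) in NC to 142 ± 13.2 (SD, n = 3) in SiCIRBP, whereas RBM8A had 215 ± 18.5 and 247 ± 63.4 TPM (SD, n = 3 each). On the TPM scale, 8 of the 12 called members had groups that did not overlap (66.7%, against 61.6% of all genes called over the 4 libraries), while RBM12B, RBM15B, RBM25 and RBMX overlapped.

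**Figure D4:**
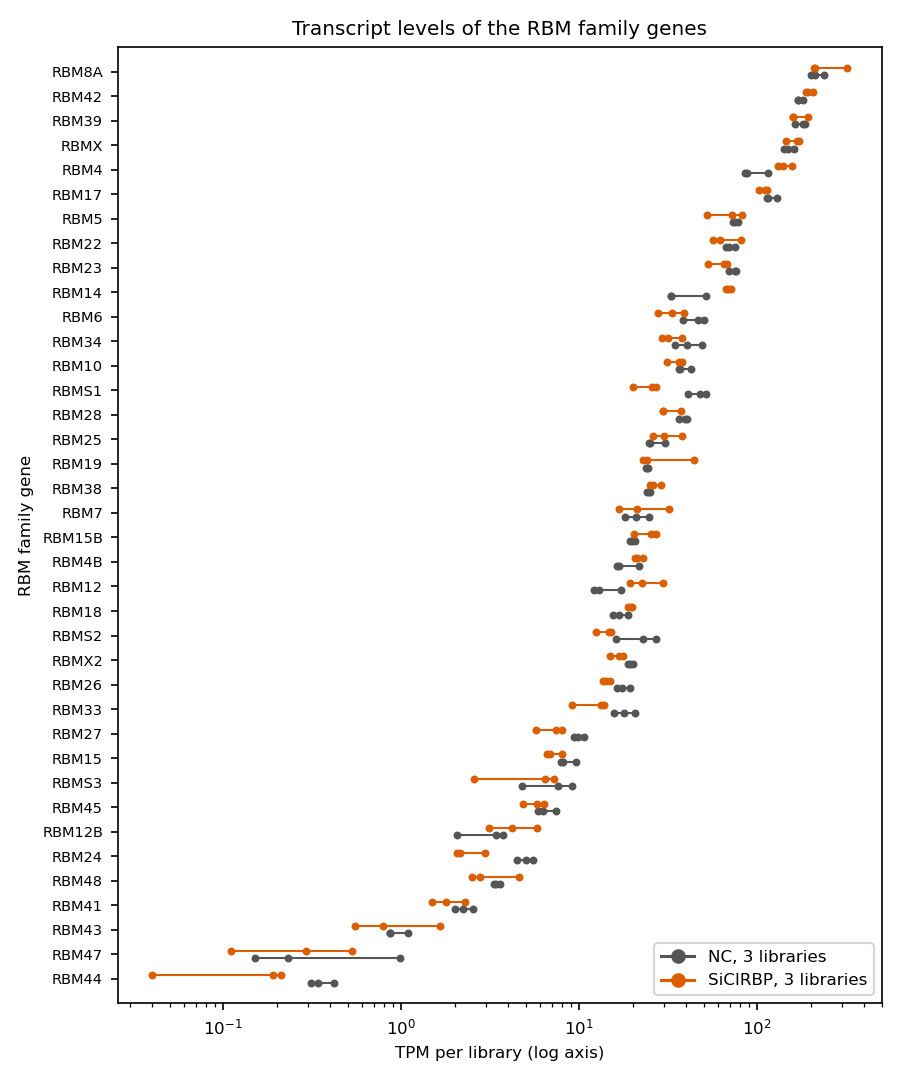
TPM of each member in each library (log x axis), with members ordered by their mean over 6 libraries; grey points are NC and orange points SiCIRBP, and lines join the lowest and highest library of a group. The ranges of neighbours overlap nearly everywhere, and the groups are clearly apart for RBM14, RBMS1 and RBM24.

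The ratio of count to TPM gives the transcript length that was assigned to a gene in each library, and it moves when reads are assigned to longer or shorter isoforms of the gene. It was compared by limma for 35 members. None was called longer (0.00835% of 11977 genes) or shorter (0.0%), and 11 members (31.4%) had an unadjusted p under 0.05, against 14.1% of all genes. Over all 6 libraries none was called longer (0.00857% of genes) or shorter, and 5 members (14.3%) had an unadjusted p under 0.05, against 12.0%. The members nearest to a call are named after their values were seen. The implied length of RBM5, a splicing factor of the 3′ splice site, differed from the NC mean by -0.07, 0.04 and 0.03 (log2) in the NC libraries and by -0.16, -0.15 and -0.17 in SiCIRBP (4-library difference -0.20, SE 0.014, adjusted p = 0.169). That of RBM8A was higher by 0.11, 0.09 and 0.10 in SiCIRBP (difference 0.13, adjusted p = 0.169). Both were apart from NC in all 3 SiCIRBP libraries, and neither passed the test.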

How the data were processed

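Libraries were grouped by the labels, 3 NC and 3 SiCIRBP. The authors deposited 2 values per gene and library: estimated counts, which are not normalized (87.3% of values are whole), and TPM, in which counts are scaled by transcript length and library. The submitters' processing notes name fastp, HISAT, RSEM and the hg38 build, and the annotation release is not given in the sources used here. Columns with the authors' own comparisons (fold changes and p-values) were not used, and 0 columns of per-sample values were set aside.

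Estimated counts were rounded and tested over all genes with edgeR 4.0.16 in R 4.3.3 (TMM normalization, filterByExpr, quasi-likelihood test, Benjamini-Hochberg adjustment). The main fit used NC_2, NC_3, SiCIRBP_1 and SiCIRBP_3, as in the study, and all 6 libraries were fitted beside it. CPM was scaled by TMM over 6 libraries. DESeq2 1.42.0, RLE size factors, other filters, a replicate block and leaving out libraries were the alternatives. Standard errors were derived from the log2 fold change and its F statistic. Implied length, log2(count / TPM) centred per library, was tested with limma 3.58.1 for genes with at least 20 counts and 1 TPM in every library tested. The scripts were tested on simulated data. Gene positions and shared 31-base words came from GENCODE 29, and promoters from RefSeq GRCh38.p14. Permutation tests used scipy 1.17.1.

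The members and gene lists were chosen with earlier results of these data known. Named with values were CIRBP, the members called over the 4 libraries, the 5 largest rises and the 5 largest falls, members with separate groups over 6 libraries and a difference of at least 0.5 (log2), the 5 highest in TPM, RBM20, RBM24, RBM38, RBM47 and RBM43, any member whose implied length passed its test, paralogs of those named, and the 2 partners with the smallest p in each list.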

Additional observations from a re-analysis of the deposited data

How the results depend on the processing

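All 12 called members kept their direction under every alternative run (each over the 4 or all 6 libraries), and the 12 stayed called with RLE size factors, DESeq2 over the 4 libraries, no filter on low counts and at least 10 counts in every library. Where calls were lost, the cause was not tested. Members higher and lower (8 and 4) became 2 and 1 with a 2-fold threshold added, 0 and 0 over all 6 libraries, 4 and 2 with DESeq2 over all 6, 1 and 0 over the 5 libraries without NC_1 (0.0322% and 0.0837% of all genes), and 4 and 2 over the 5 without SiCIRBP_2 (3.57% and 3.63%). All 6 libraries with no filter on low counts, an alternative chosen after seeing the data, gave 3 and 2 (1.5% and 1.64%). Leaving out each of the 4 libraries gave 1 to 11 higher and 0 to 10 lower, and the lone library of a group was then assumed to vary like the other group's. Partners higher and lower (8 and 1) became 0 and 0 over all 6, 1 and 0 with DESeq2 over all 6, 8 and 2 with DESeq2 over the 4, 9 and 4 with no filter, 0 and 0 without NC_1 of the 6, 1 and 0 without SiCIRBP_2, 1 and 0 over all 6 with no filter, and 0 to 20 and 0 to 9 leaving out each of the 4.

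The members' median log2 fold change of -0.06 became 0.10 over all 6 (edgeR and DESeq2), 0.09 over the 5 without NC_1, 0.08 over all 6 with no filter, and -0.12 to -0.03 leaving out each of the 4. CIRBP ranged from -0.94 to -0.70 leaving out each of the 4, and edgeR did not call it over all 6 (-1.07) or over the 5 without NC_1 (-1.08), whereas DESeq2 over all 6 (-1.07, adjusted p = 0.00328) and edgeR over all 6 with no filter (-1.08, adjusted p = 0.00775) did. Directions turned only for members that were not called, and over all 6 (edgeR) for 9 of them (RBM7, RBM18, RBM22, RBM28, RBM34, RBM39, RBM41, RBM43 and RBM48). RBM39 was 0.09 over all 6 (edgeR and DESeq2), 0.11 without NC_1 of the 6 and 0.07 with no filter. RBM43 was 0.12, 0.11 and 0.10 under these. RBM47 was -0.06 without NC_2 and ranged from -0.71 (without SiCIRBP_3) to 0.71 (without SiCIRBP_1), and RBMS3 was 0.09 over the 5 without SiCIRBP_2.

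Pairing by replicate number was not apparent: over 15217 genes the deviations of same-numbered libraries from their group means correlated at -0.118, 0.006 and -0.026. With 3 libraries per group, 1 of them (SiCIRBP_2) apart from the others, these values cannot exclude pairing. With the replicate block over all 6 libraries, 0 members and 0 partners were called in either direction, the members' median was 0.03, CIRBP was -1.14 (edgeR adjusted p = 0.131) and RBM39 was 0.07. No implied length of a member was called under any alternative run. Depth limits RBM44, RBM47 and RBM43 most, with few counts per library.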
